A study of Mus musculus with 96 samples.

Results

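The thalamus of mice at 3 days post-injury (dpi) was compared between controlled cortical impact (CCI) and sham injury over both drug arms, vehicle (VH) and candesartan (CD). The comparison took the 16 thalamus libraries of the 3 dpi cohort, out of 96 libraries in the series, and set 8 injured libraries against 8 sham libraries with the drug arm as a term in the model. With vehicle the groups were Sham + VH and TBI + VH, with candesartan they were Sham + CD and TBI + CD, and each held 4 libraries. All mice were male C57BL/6 of 8 to 10 weeks. TBI mice had a moderate CCI through a 3 mm craniectomy over the left cortex, and sham mice had anesthesia and a scalp incision without craniectomy, so that opening the skull and the impact cannot be told apart. Candesartan, a blocker of the angiotensin II type 1 receptor, was given by intraperitoneal injection at 0.1 mg/kg, and vehicle mice had the buffered saline alone, at 6, 24 and 48 h after surgery. The study kept the 4 samples of highest RNA quality per group. The question of the comparison is what injury to the cortex does to gene expression in the thalamus, which lies below the lesion and is wired to it.

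The thalamus relays sensory and motor signals to the cortex and receives dense projections back from it, so that a cortical lesion cuts axons and terminals of thalamic relay neurons. Microglia, the resident macrophages of the brain, survey this tissue. After distant damage they can divide, take up debris and change their surface receptors and complement proteins, while astrocytes raise intermediate filament and acute phase genes. In bulk tissue, more cells of a type and more RNA per cell cannot be told apart.

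Total counts ran from 17440742 to 29956621 per library (median 23561848), with the lowest median in TBI + CD at 20151003. Genes of the thalamus were at thalamic levels in all 16 libraries: Tcf7l2, a transcription factor of thalamic neurons, ranged from 200.3 to 338 CPM (counts scaled to a common library size), against 2.81 to 10.9 CPM in the hippocampus, and Neurod6, a gene of hippocampal pyramidal cells, ranged from 0.224 to 2.75 CPM in the thalamus against 157 to 312 CPM in the hippocampus. Markers of neighbouring tissue differed between libraries. Ttr, the transthyretin of the choroid plexus, was at 1028, 3184 and 611 CPM in Sham + VH 1, Sham + VH 3 and Sham + CD 3, and at 5.96 to 50.4 CPM in the other 13 libraries. Pou4f1, a transcription factor of the habenula, was at 0.369, 0.843 and 0.370 CPM in TBI + VH 3, TBI + VH 4 and TBI + CD 4, and at 2.66 to 27.9 CPM in the others. Hcrt and Pmch, neuropeptides of the lateral hypothalamus, ranged from 0.0432 to 102 CPM and from 3.58 to 394 CPM. The comparison was also run without the first 3 and without the second 3 libraries, alternatives chosen after the data were seen.

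Injury changed few genes in the thalamus, and nearly all in one direction. Of 16762 genes tested, 162 were differentially expressed genes (DEGs) with higher expression after injury (0.966%) and 1 with lower expression (0.00597%), by edgeR's quasi-likelihood test. A DEG had to change by more than 0.32 on the log2 scale, up or down, with a false discovery rate (FDR) below 0.05. Of the 162 genes, 18 reached the filter on low counts (0.424 CPM in at least 4 libraries) through the injured libraries and not through the sham libraries, as did 194 of all genes tested, so that such genes had to be higher after injury to be tested. They are given by their levels in CPM. In the other 144 the median log2 fold change was 0.66, with a range of 0.33 to 2.51, and 22 exceeded 1. In 75 of the 163 DEGs the 8 injured and the 8 sham libraries did not overlap, against 82 of all genes tested (0.489%). The 1 gene below sham, AK131644, had 3 to 39 counts per library, overlapped between the groups, and stayed a DEG in 8 of 26 alternative fits. Without the 3 sham libraries high in Ttr, 89 genes were DEGs, 79 of them among the 162. Of the 162 genes, 76 belonged to the gene lists described below and 86 to none.

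The DEG with the smallest FDR was Tyrobp, the adaptor that signals for TREM2 and other microglial receptors. Tyrobp ranged from 9.32 to 11.3 CPM (median 10.5) in the sham libraries and from 17.0 to 20.9 CPM (median 18.1) in the injured libraries. Every injured library was above every sham library, and the log2 fold change was 0.84 ± 0.06 (SE, FDR = 3.86e-07 by edgeR). Ly86, a partner of the Toll-like receptor relative CD180, ranged from 6.03 to 7.97 CPM in sham and from 12.3 to 19.5 CPM in injured thalamus (log2 fold change 1.15 ± 0.09, FDR = 1.33e-06 by edgeR). These groups did not overlap either. Cd68, a lysosomal protein of phagocytes, ranged from 4.98 to 7.25 CPM in sham and from 9.41 to 15.4 CPM after injury, a log2 fold change of 1.04 ± 0.10.

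**Figure D1:**
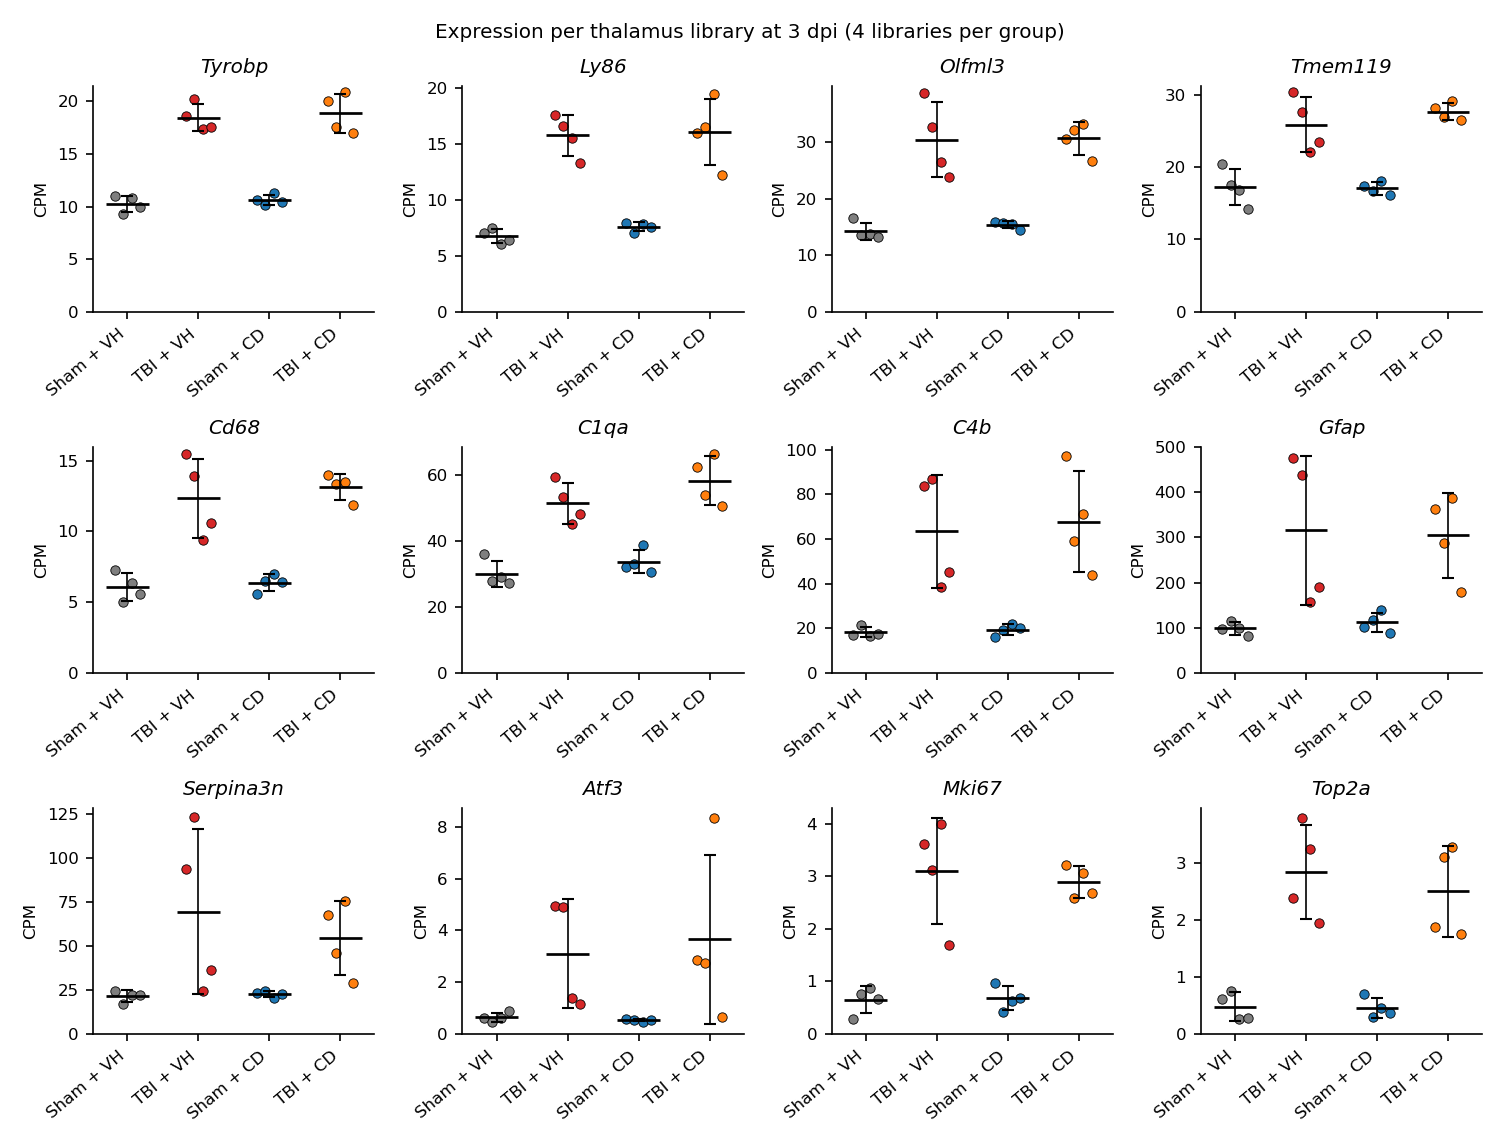
Expression in CPM (linear axes from 0) of 12 genes in each of the 16 thalamus libraries at 3 dpi, with the mean (bar) and SD (whiskers) of the 4 libraries of a group. In Tyrobp, Ly86, Olfml3, Tmem119, Cd68, C1qa, C4b, Gfap, Mki67 and Top2a every injured library lies above every sham library, while the injured libraries of Serpina3n and Atf3 reach down into the sham range.

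Genes that define resident microglia were higher after injury. Of the 15 genes in the homeostatic microglia list, 15 were tested and 11 rose (0.966% of all genes did so), with a median log2 fold change of 0.44 against -0.0027 over all genes tested. Olfml3, a secreted microglial glycoprotein, ranged from 13.2 to 16.5 CPM in sham and from 23.7 to 38.6 CPM in injured libraries (log2 fold change 1.04 ± 0.09). Tmem119, a membrane protein that marks resident microglia, ranged from 14.2 to 20.3 CPM in sham and from 22.0 to 30.4 CPM after injury (log2 fold change 0.64 ± 0.07). The groups did not overlap for either gene. Csf1r, the receptor that keeps microglia alive, rose by 0.46 ± 0.05, and Cx3cr1, the fractalkine receptor, by 0.44 ± 0.06. P2ry12, the purinergic receptor that guides microglial processes and that activated microglia can lose, also rose, by 0.38 ± 0.08. The members Slc2a5, Sall1, Sparc and Mef2c were at log2 fold changes of 0.35, 0.21, 0.14 and -0.05 and were not DEGs.

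Of the 30 receptors and signalling genes of microglia and macrophages, 30 were tested and 22 rose, with a median log2 fold change of 0.62. They held the integrin chain Itgam (0.61 ± 0.07), the cathepsin Ctss (0.49 ± 0.06), the calcium binding protein Aif1 (0.80 ± 0.10), the Fc receptors Fcer1g, Fcgr3 and Fcgr2b (0.60, 0.60 and 0.83), the Toll-like receptors Tlr1, Tlr2 and Tlr7 (1.08, 0.69 and 0.78) and the transcription factors Irf8 (0.70) and Spi1 (0.66). The summed level of the list was 148 to 180.4 CPM in sham and 216 to 294 CPM in injured libraries, without overlap. Laptm5, a lysosomal membrane protein of blood and microglial cells, rose by 0.71 ± 0.07.

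The genes known as a signature of disease-associated microglia moved in part. Of 24 genes 22 were tested and 6 rose: Tyrobp, Cd68, Trem2 (0.72 ± 0.08), the protease Ctsd (0.35 ± 0.06), the lysozyme Lyz2 (0.71 ± 0.13), which blood monocytes also express, and the lectin receptor Clec7a. Clec7a, at 0.123 to 0.572 CPM in sham and 0.370 to 1.08 CPM after injury, reached the filter through the injured libraries. It kept the call in 12 of 26 alternative fits and lost it in 12 of the 16 without 1 library. Trem2, the lipid receptor that pairs with TYROBP, ranged from 7.10 to 9.29 CPM in sham and from 10.2 to 15.5 CPM after injury. Members of the same signature that were not DEGs included Apoe at a log2 fold change of 0.08, Spp1 at 0.21, Axl at 0.17, Cd9 at 0.17 and Gpnmb at 1.15 ± 0.33, the last with an FDR of 0.16 by edgeR. Cst7 and Itgax were under the filter on low counts. The list's median was 0.27.

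The complement list held 18 genes, all tested, of which 7 rose. The 3 chains of C1q, which starts the classical pathway, moved alike: C1qa by 0.78 ± 0.08, C1qb by 0.82 ± 0.09 and C1qc by 0.78 ± 0.09. C1qa ranged from 27.4 to 38.7 CPM in sham and from 45.2 to 66.5 CPM in injured libraries. C4b, which C1 cleaves next, was at 15.9 to 21.9 CPM in sham and at 38.4 to 97.2 CPM after injury, a log2 fold change of 1.81 ± 0.18 (FDR = 1.96e-05 by edgeR). C4a, a near-identical copy of C4b outside the list, was a DEG too at 0.77, and reads of the copies may have been split between them. C3ar1, the receptor of C3a, rose by 0.97 ± 0.13, and both chains of the C3 receptor, Itgam and Itgb2, rose. C3 itself was at a log2 fold change of 1.11 ± 0.42 with an FDR of 0.46, and C5ar1 at 0.86 with an FDR of 0.12 (edgeR), so neither was a DEG.

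Of 27 lysosomal genes 7 rose. They included Cd68, Ctss, Ctsz (0.54), Grn (0.40), Ctsd (0.35) and Gusb (0.33). Ctsz, a lysosomal carboxypeptidase, went from 24.2 to 33.6 CPM in sham to 35.1 to 45.9 CPM in injured libraries. The broadly expressed members Psap, Lamp1 and Ctsb were at log2 fold changes of 0.01, 0.04 and 0.06.

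Most markers of cells from the blood were under the filter. Of 18 genes of infiltrating monocytes and border macrophages, 9 passed the filter and 1, the calcium binding protein S100a4, rose by 0.74 ± 0.16, a call kept in 12 of 26 alternative fits. Of the 9 genes 8 had a log2 fold change above 0, with a median of 0.22. Among the 9, 1 gene reached the filter through the injured libraries alone. Ccr2, Ly6c2, Chil3 and Plac8 were under the filter, and the summed level of the list was 31.4 to 52.2 CPM in sham and 29.9 to 58.7 CPM in injured libraries. Mrc1, a mannose receptor of border macrophages, was at 3.04 to 4.59 CPM in sham and at 2.53 to 5.16 CPM after injury (log2 fold change 0.07). None of the 15 genes of T, B and NK cells passed the filter, and their summed level was 0.456 to 1.20 CPM in sham and 0.849 to 1.69 CPM after injury. Of 12 neutrophil and mast cell genes 3 passed, and the 1 that rose was Csf3r (0.57 ± 0.11), the G-CSF receptor, which microglia also express. Csf3r was not a DEG without the 3 sham libraries high in Ttr (FDR = 0.0737 by edgeR). S100a8, Camp, Ltf and Cxcr2 were under the filter.

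Chemokine genes rose for a few members at low levels. Of 25 genes 12 were tested and 4 rose: Ccl6 (1.14 ± 0.16), Ccl9 (1.12 ± 0.18), Ccl12 and Tgfb1 (0.50 ± 0.11). Ccl12, at 0 to 0.287 CPM in sham and 0.293 to 0.647 CPM after injury, reached the filter through the injured libraries. Ccl6 ranged from 0.596 to 1.10 CPM in sham and from 1.44 to 2.39 CPM after injury. Il1b, Il6, Tnf, Ccl2, Ccl3 and Ccl4 were under the filter. The count fell to 2 without Sham + VH 4, Sham + CD 2, Sham + CD 3, TBI + CD 2 or TBI + CD 3, or without the 3 sham libraries high in Ttr. It reached 5 without TBI + VH 3 or TBI + VH 4.

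Cell cycle genes held several of the largest increases. Of 30 genes 26 were tested, 12 rose and 26 had a log2 fold change above 0, with a median of 0.51. Of the 26 genes, 6 reached the filter through the injured libraries alone. The count above 0 and the median include these 6, which had to be higher after injury to be tested. Mki67, the proliferation antigen Ki-67, was at 0.287, 0.761, 0.881 and 0.670 CPM in Sham + VH, at 3.61, 3.11, 3.99 and 1.69 CPM in TBI + VH, at 0.975, 0.422, 0.623 and 0.688 CPM in Sham + CD and at 3.22, 2.58, 3.06 and 2.69 CPM in TBI + CD. Each injured library was above each sham library, and the log2 fold change was 2.16 ± 0.21 (FDR = 1.96e-05 by edgeR). Top2a, the topoisomerase of dividing cells, ranged from 0.264 to 0.761 CPM in sham and from 1.76 to 3.79 CPM in injured libraries (log2 fold change 2.48 ± 0.24). Of the 12 genes 5 reached the filter through the injured libraries alone, among them the mitotic kinase gene Aurkb, the cyclin-dependent kinase gene Cdk1 and the ubiquitin carrier of the anaphase complex Ube2c. Aurkb was at 0.0672 to 0.166 CPM in sham and 0.259 to 0.775 CPM after injury, and Ube2c at 0.0394 to 0.303 and 0.376 to 0.879 CPM, without overlap. Cdk1 was at 0.125 to 0.321 and 0.169 to 0.957 CPM, with overlap. Pbk, a mitotic kinase outside the list, ranged from 0 to 0.220 CPM in sham and from 0.469 to 0.997 CPM after injury, with at most 27 counts in a library. It too reached the filter through the injured libraries. Cdk1 was not a DEG without the 3 sham libraries high in Ttr (FDR = 0.0574 by edgeR).

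In the DNA replication list 2 of 26 genes rose and 11 were higher at an unadjusted p under 0.05 (4.6% of all genes were). Among the 26, 1 gene that was not a DEG reached the filter through the injured libraries alone. The DEGs were the helicase subunit Mcm5 (0.52 ± 0.09) and the maintenance methylation factor Uhrf1 (1.01 ± 0.21). DESeq2 called 4, and the count was 1 without Sham + CD 2, 4 without TBI + VH 3 and 0 without the 3 sham libraries high in Ttr. Pcna was at 0.01 and Lig1 at 0.12. In the cell cycle list Birc5, Cdc20 and Kif23 were at log2 fold changes of 0.29, 0.14 and 0.03. Without the 3 sham libraries high in Ttr, 5 of the cell cycle genes were DEGs and none of the replication genes was, while the median of the cell cycle list was 0.44.

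The promoters of these genes were searched for sequence motifs known from these classes of gene, and the windows shown were picked because they hold matches. The motifs were searched for on both strands. For cell cycle genes they were TTTGAA, the core of the cell cycle homology region, and CCAAT, the box bound by NF-Y. GAGGAAGT is a binding motif of SPI1, the factor that sets myeloid cell identity and whose own gene rose. RefSeq promoters (GRCm38.p6, 250 bases before to 50 after the start site) were matched for 113 of the 162 genes, with 137 promoters. The windows are, on the minus strand, Top2a at chr11:99024190-99024314 and Mki67 at chr7:135716420-135716544, on the plus strand Ube2c at chr2:164769804-164769928, Inpp5d at chr1:87620187-87620311 and Vav1 at chr17:57278975-57279099, and on the minus strand C1qc at chr4:136893040-136893164. They are printed 5′ to 3′ on the strand of the gene, with motif matches of either strand in capitals.
Top2a: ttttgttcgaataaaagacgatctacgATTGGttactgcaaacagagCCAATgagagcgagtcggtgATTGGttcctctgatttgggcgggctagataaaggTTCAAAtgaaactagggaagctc
Ube2c: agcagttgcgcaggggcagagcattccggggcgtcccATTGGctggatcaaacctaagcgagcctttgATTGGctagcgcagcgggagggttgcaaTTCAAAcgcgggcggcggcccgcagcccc
Mki67: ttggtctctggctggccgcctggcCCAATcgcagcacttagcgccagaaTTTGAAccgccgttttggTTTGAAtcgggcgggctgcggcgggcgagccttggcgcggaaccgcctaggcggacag
C1qc: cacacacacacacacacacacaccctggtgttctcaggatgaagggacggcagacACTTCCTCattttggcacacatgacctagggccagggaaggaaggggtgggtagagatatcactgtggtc
Inpp5d: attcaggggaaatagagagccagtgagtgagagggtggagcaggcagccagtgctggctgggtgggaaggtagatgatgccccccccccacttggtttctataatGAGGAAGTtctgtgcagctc
Vav1: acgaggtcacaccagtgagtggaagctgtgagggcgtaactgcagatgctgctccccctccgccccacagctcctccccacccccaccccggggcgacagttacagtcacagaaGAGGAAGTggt

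The first 3 sequences end 1, 1 and 41 bases before the start site, and the capitals in them are CCAAT or TTTGAA or their reverse complements ATTGG and TTCAAA. Inpp5d, a lipid phosphatase of immune receptor signalling, and Vav1, an exchange factor of the same pathways, carry GAGGAAGT within 20 bases before the start site. In C1qc the window starts 250 bases before it and holds the reverse complement ACTTCCTC. The motif TTTGAA was present in 8 of 13 promoters (61.5%) of the DEGs in the cell cycle and replication lists and in 11.9% of the 14848 promoters of all tested genes, and CCAAT in 11 of 13 (84.6%) against 37.3%. Among all 50 promoters of those lists, changed or not, the shares were 44.0% and 66.0%. GAGGAAGT was present in 22 of 137 promoters (16.1%) of the genes that rose and in 2.79% of all promoters, in 7 of 44 promoters (15.9%) of the genes that rose in the microglial, complement, lysosome and chemokine lists, and in 0 of the 13 cell cycle and replication promoters. Most promoters of the genes that rose did not hold it, and its share among microglial list genes that did not change was not counted. TTCNNNGAA, a STAT motif, was present in 10.9% against 6.79%, and a repeated GAAA motif of interferon regulatory factors in 6.57% against 2.91%. These shares are descriptions of letters in a window, without a test.

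Astrocyte genes of the reactive state rose for few members, and not to the same extent in each injured library. Of 26 genes 22 were tested and 3 rose, with a list median of 0.22. The median includes 2 genes that reached the filter through the injured libraries alone and were not DEGs. They were Gfap, the astrocyte intermediate filament, Serpina3n, a secreted protease inhibitor, and Aspg, an asparaginase (0.92 ± 0.17). Gfap ranged from 81.5 to 139 CPM in sham. It was at 476, 438, 158 and 189 CPM in TBI + VH and at 362, 288, 388 and 179.6 CPM in TBI + CD, above each sham library but with a spread of its own (log2 fold change 1.56 ± 0.22, FDR = 0.000555 by edgeR). Serpina3n ranged from 17.1 to 24.6 CPM in sham and was at 94.0, 123, 24.3 and 36.4 CPM in TBI + VH and at 67.8, 46.1, 75.4 and 29.1 CPM in TBI + CD (log2 fold change 1.48 ± 0.28). TBI + VH 3 lay inside the sham range. Without the 3 sham libraries high in Ttr, Gfap was the 1 DEG of the list, and Serpina3n, Aspg, Atf3 and Serpinf2 were not DEGs. Vim, another intermediate filament, was at 0.50 ± 0.23 with an FDR of 0.7 (edgeR). It was a DEG at 0.85 without the 3 injured libraries low in Pou4f1 (FDR = 0.00218 by edgeR) and at 0.58 with a habenula score in the model. Those 3 libraries had the lowest Vim of the injured libraries, which by itself raises the value without them. Stat3, at 0.22, passed the FDR but not the fold change. Of 20 genes of astrocyte homeostasis 0 were DEGs and 12 were higher at an unadjusted p under 0.05, against 4.6% of all genes. DESeq2 also called 0, and the alternative fits called 0 to 2.

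The 3 injured libraries with the lowest Gfap, Serpina3n and Atf3 were the 3 with under 1 CPM of the habenular marker Pou4f1. Atf3, a stress transcription factor of injured neurons, was at 4.93, 4.91, 1.40 and 1.14 CPM in TBI + VH and at 2.87, 2.74, 8.33 and 0.648 CPM in TBI + CD, against 0.456 to 0.868 CPM in sham (log2 fold change 2.51 ± 0.44, FDR = 0.00515 by edgeR). A2m, a protease inhibitor of astrocytes and plasma, was at 66.8, 68.3, 23.1 and 22.3 CPM and at 42.6, 43.3, 52.7 and 20.7 CPM in the same order, against 15.3 to 27.1 CPM in sham. Vim was at 22.7, 24.2 and 22.7 CPM in the 3 libraries and at 39.3 to 69.4 CPM in the other 5, against 19.4 to 35.9 CPM in sham. Serpinf2, an inhibitor of plasmin that reached the filter through the injured libraries, was at 0.253 to 0.278 CPM in the 3 libraries and at 1.18 to 2.63 CPM in the other 5 injured libraries, against 0.0440 to 0.303 CPM in sham. Other habenular genes were low in the same 3 libraries: the receptor gene Gpr151 was at 6.44 to 9.63 CPM against 36.9 to 64.6 CPM in the other 5, the nicotinic receptor subunit Chrnb4 at 0.648 to 1.69 against 27.1 to 43.9 CPM, and the neuropeptide Tac2 at 8.89 to 18.3 against 60.0 to 82.0 CPM. Sham libraries varied too, with Gpr151 at 12.1 to 66.5, Chrnb4 at 5.46 to 41.4 and Tac2 at 21.7 to 75.7 CPM.

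Most microglial and complement genes given per library were also lowest of the injured libraries in these 3, though above every sham library. C4b was at 38.4 to 45.2 CPM in the 3 and at 59.0 to 97.2 CPM in the other 5. Olfml3 was at 23.7 to 26.6 against 30.6 to 38.6 CPM, and Cd68 at 9.41 to 11.9 against 13.4 to 15.4 CPM. Ly86, Tmem119 and C1qa had the same order, as did Lyz2, which reached into the sham range. Tyrobp, at 17.04 to 17.57 against 17.55 to 20.89 CPM, and Mki67, at 1.69 to 3.99 against 2.58 to 3.61 CPM, overlapped between the 3 and the other 5. Without the 3 libraries, 219 genes were DEGs, 143 of them among the 162, and 5 of the reactive astrocyte genes rose. Leaving out the injured libraries with the lowest values of such genes raises their injury effect by itself, so these counts do not speak to the tissue. No sham library was under 1 CPM of Pou4f1. The part of the dissected tissue in these values was not tested.

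**Figure D2:**
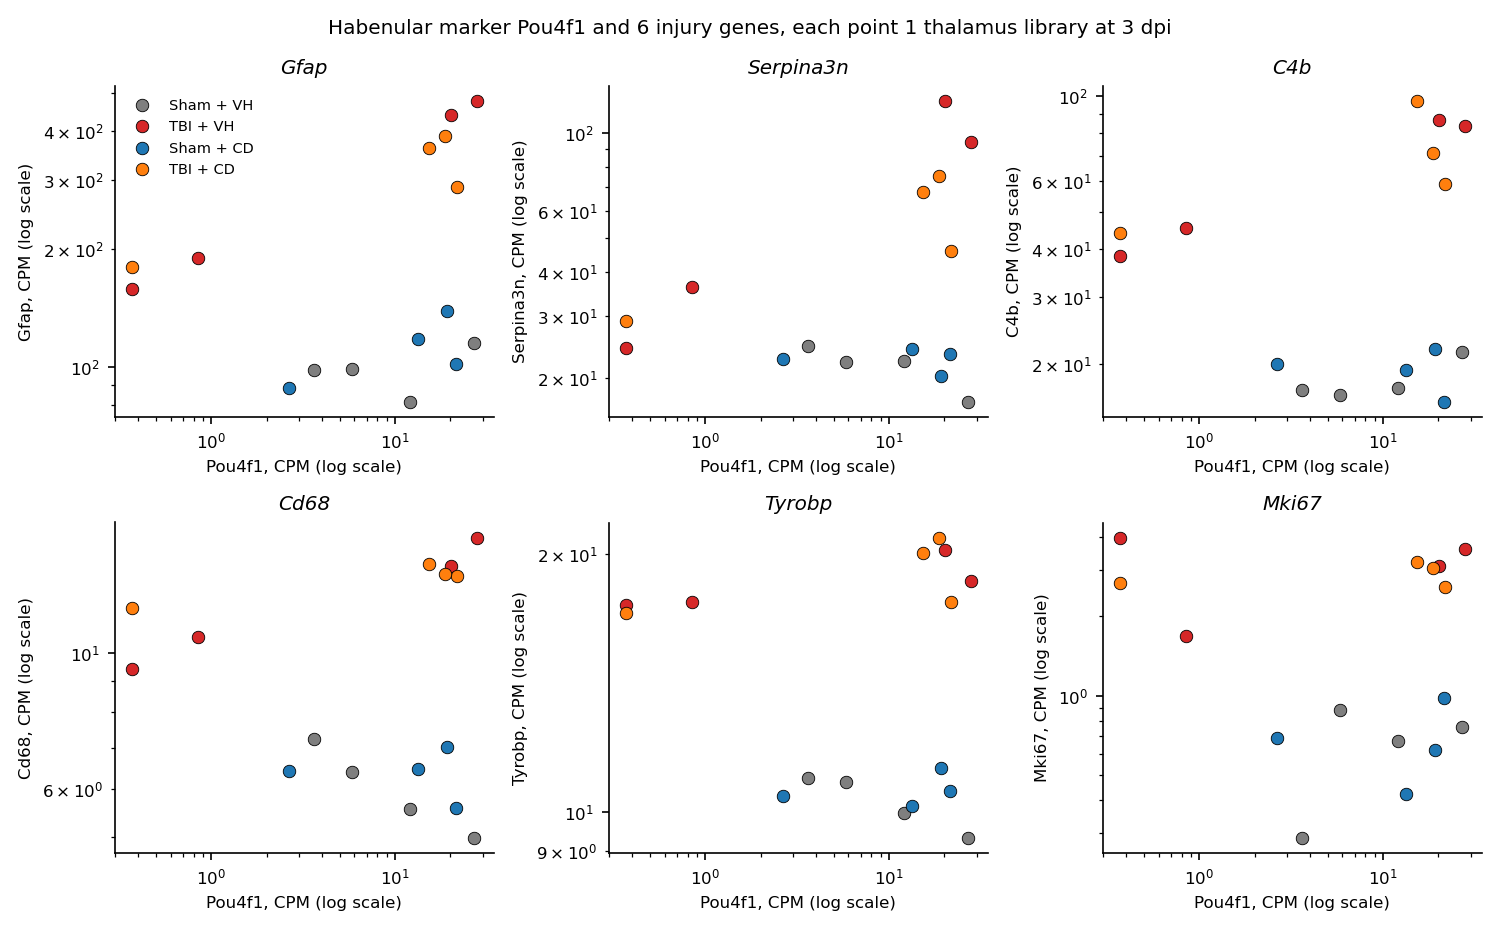
Levels of Gfap, Serpina3n, C4b, Cd68, Tyrobp and Mki67 (vertical log axes, CPM) against the habenular marker Pou4f1 (horizontal log axis, CPM), 1 point for each of the 16 thalamus libraries, coloured by group. The 3 injured libraries under 1 CPM of Pou4f1 have the lowest Gfap, Serpina3n, C4b and Cd68 of the injured libraries, with Gfap from 158 to 189 CPM and C4b from 38.4 to 45.2 CPM, while their Tyrobp and Mki67 overlap those of the other 5.

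Genes of neurons, myelin and vessels showed no DEG. This held for the 23 genes of thalamic relay neurons, 13 of the reticular nucleus, 33 of synapses, 18 of myelinating oligodendrocytes, 15 of oligodendrocyte precursors, 20 of endothelium and 12 of pericytes, with list medians between -0.06 and 0.05. Without Sham + VH 4, 1 gene of oligodendrocyte precursors was called lower, and 2 of them were lower at an unadjusted p under 0.05 with all libraries. The arms differed in sign for some of these lists: the median was 0.14 with vehicle and -0.23 with candesartan for myelinating oligodendrocytes, and 0.13 and -0.21 for the reticular nucleus. Slc17a6, the glutamate transporter of relay neurons, was at 453 to 599 CPM in sham and 374 to 623 CPM in injured libraries (log2 fold change 0.01 ± 0.08). Prkcd, a kinase of relay neurons, was at -0.18 ± 0.15. The unadjusted p was under 0.05 for 4 of the relay, reticular and synapse genes together at lower expression and for 1 at higher expression, and DESeq2 called 0 in each of these lists. Of 18 axon injury genes that were tested, Atf3 was the 1 DEG, and the regeneration genes Sox11, Gap43 and Jun were at log2 fold changes of 0.14, 0.02 and 0.19. Hrk, a BH3-only activator of neuronal cell death, rose by 0.59 ± 0.13 (FDR = 0.0351 by edgeR), from 9.20 to 18.9 CPM in sham to 16.7 to 24.0 CPM in injured libraries. Its groups overlapped, and it kept the call in 11 of 26 alternative fits, losing it in 12 of the 16 without 1 library and without the 3 sham libraries high in Ttr or the 3 injured ones low in Pou4f1.

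Interferon response genes were mostly above 0 but rarely DEGs, and 2, Mx1 included, reached the filter through the injured libraries alone. Of 25 tested, 24 had a log2 fold change above 0 and 3 rose: the tetherin gene Bst2 (0.76 ± 0.14), the antiviral GTPase gene Mx1, at 0.0881 to 0.266 CPM in sham and 0.215 to 0.892 CPM after injury, and I830012O16Rik (0.50 ± 0.11), a near copy of Ifit3 that is also named Ifit3b. The count was 1 without TBI + VH 1, Sham + VH 4, TBI + CD 1, TBI + CD 3 or any 1 of the Sham + CD libraries, 5 without TBI + CD 4, and 8 without the 3 injured libraries low in Pou4f1. Bst2 lost the call without the 3 sham libraries high in Ttr (FDR = 0.0521 by edgeR), I830012O16Rik in 12 of the 16 fits without 1 library, and Mx1 in 11. Psmb8, an immunoproteasome subunit, was the 1 DEG of 12 MHC class I genes (0.52 ± 0.12) and kept the call in 8 of 26 alternative fits, and no MHC class II gene of 6 was a DEG, with 2 higher at an unadjusted p under 0.05 and 0 called by DESeq2. Hmox1, which degrades heme, rose by 0.57 ± 0.10 as the 1 of 13 genes of iron and heme handling, and no gene of extracellular matrix (25 tested), cholesterol synthesis (21 tested) or immediate early response (18 tested) was a DEG, also in DESeq2. The other alternative fits called at most 1 immediate early gene higher.

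The renin-angiotensin system, on which candesartan acts, showed no DEG among 10 tested genes, with 1 higher and 1 lower at an unadjusted p under 0.05 and 0 called by DESeq2. Agt, the precursor of the angiotensins that astrocytes make, was at 239 to 314 CPM in sham and 247 to 363 CPM after injury (log2 fold change 0.19 ± 0.07, FDR = 0.446 by edgeR). Agtr1a, the receptor blocked by candesartan, was at 0.291 to 0.986 CPM in sham and at 0 to 1.17 CPM after injury, so that a change in it was poorly resolved (log2 fold change -0.01 ± 0.45). Agtr2, the other angiotensin receptor, was at 0.21 ± 0.18 and Atp6ap2, the prorenin receptor, at -0.13 ± 0.06. The converting enzyme Ace was at -0.28 ± 0.17, the peptidases Lnpep, Enpep and Anpep at -0.02, -0.01 and 0.09, and Pparg at -0.13 ± 0.23. Agtr1b and Mas1 were under the filter, at most at 0.596 and 0.828 CPM.

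The choroid plexus list was the only one with a median far below 0, at -1.31 over 18 genes. It had 0 DEGs in edgeR with 12 genes lower at an unadjusted p under 0.05, against 1.98% of all genes, while DESeq2 called 6 genes lower. In edgeR 3 were called lower without Sham + VH 2, 4 without Sham + VH 4 and 2 with the replicate number as a block. Its summed level was 304 to 5568 CPM in sham and 319 to 420.3 CPM in injured libraries. Ttr was at 611 to 3184 CPM in the 3 sham libraries high in it and at 7.08 to 50.4 CPM in injured libraries. Without the 3 sham libraries high in Ttr the median was 0.02.

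**Figure D3:**
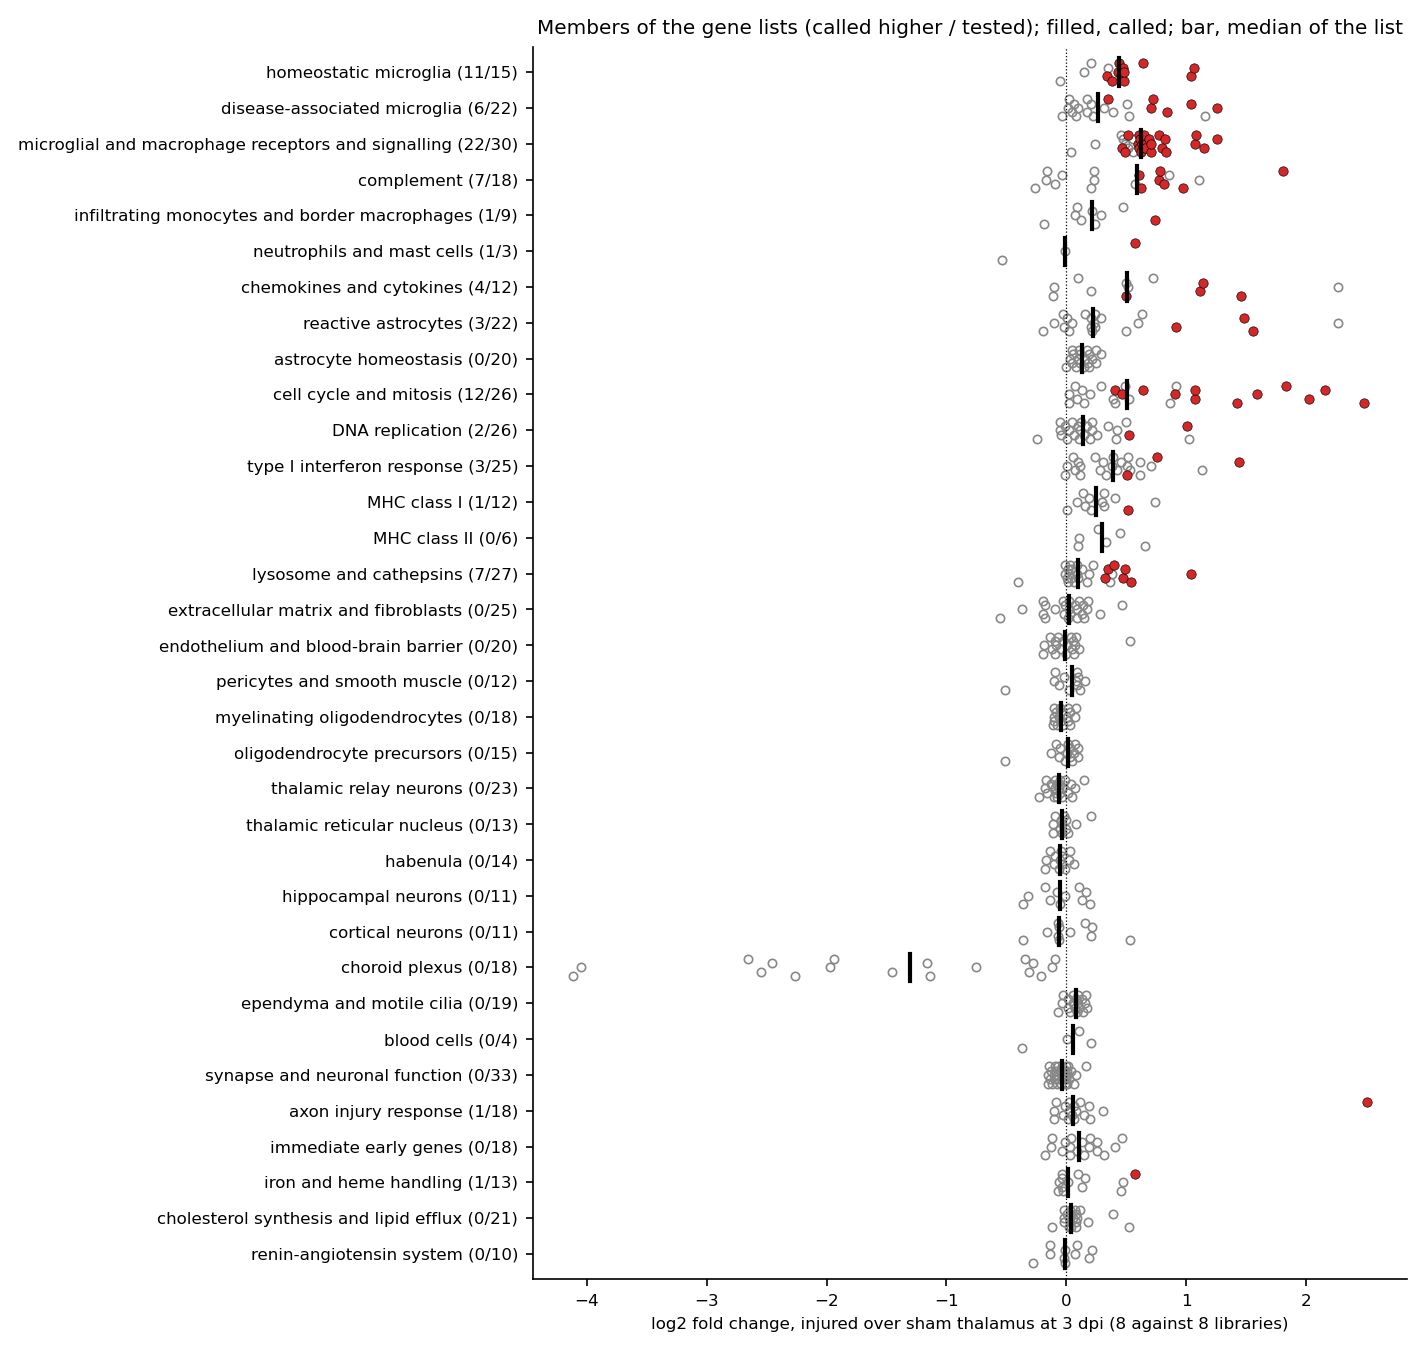
Log2 fold change (horizontal axis, injured over sham, 8 against 8 libraries) of each tested member of 34 gene lists, with DEGs filled, other genes open and the list median as a bar. DEGs gather in the microglial, complement, cell cycle and lysosome lists, and the neuronal, myelin and vessel lists lie around 0. Points and medians include genes that reached the filter through the injured libraries alone.

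Each drug arm was then tested alone, in a fit of the 4 group means. The arms share no library, but all 16 libraries gave 1 shared estimate of spread, so the p-values of the arms are not independent. Some genes, such as Pbk and Aurkb, reached the filter through the injured libraries alone. In the vehicle arm 50 genes rose (0.298%) and 0 fell, with 170 lower at an unadjusted p under 0.05 in edgeR and 2 called lower by DESeq2. In the candesartan arm 28 rose (0.167%) and 2 fell (0.0119%), Gm13293 and Mex3d. Of the 50 genes of the vehicle arm, 49 were higher at an unadjusted p under 0.05 in the candesartan arm, where 3.82% of all genes were, and 21 were DEGs there. The exception was P2rx7, the ATP-gated channel of microglia, with a log2 fold change of 0.37 in the vehicle arm and -0.06 in the candesartan arm. Of the 28 genes of the candesartan arm, 26 were higher at an unadjusted p under 0.05 in the vehicle arm, against 2.82% of all genes. Hrk (0.95 with candesartan and 0.23 with vehicle) and Cyba (0.90 and 0.23), a subunit of the phagocyte oxidase, were the exceptions. Tyrobp was at 0.84 and 0.83 in the vehicle and candesartan arms, C4b at 1.80 and 1.82, Mki67 at 2.25 and 2.06, and Gfap at 1.68 and 1.44.

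No gene passed the test of the injury by candesartan interaction in edgeR or in DESeq2. In edgeR 386 genes were at an unadjusted p under 0.05 (2.3%), and the smallest p belonged to Gm13293, DQ726833 and P2rx7. For P2rx7 the interaction was -0.43 on the log2 scale, with a 95% interval from -0.64 to -0.21, and for Hrk it was 0.72, from 0.29 to 1.15, neither past the FDR. For Tyrobp the interval was -0.26 to 0.23 and for Ly86 -0.51 to 0.22, while for Mki67 it ran from -1.11 to 0.74 and for Gfap from -1.15 to 0.68. In 13993 of 16762 genes the interval lay between -1 and 1. The counts of the single arms moved with the libraries: between 24 and 79 genes in the vehicle arm and between 10 and 36 in the candesartan arm were DEGs when 1 library was left out. A fit of the 8 vehicle libraries by themselves called 3 genes and one of the 8 candesartan libraries 38.

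**Figure D4:**
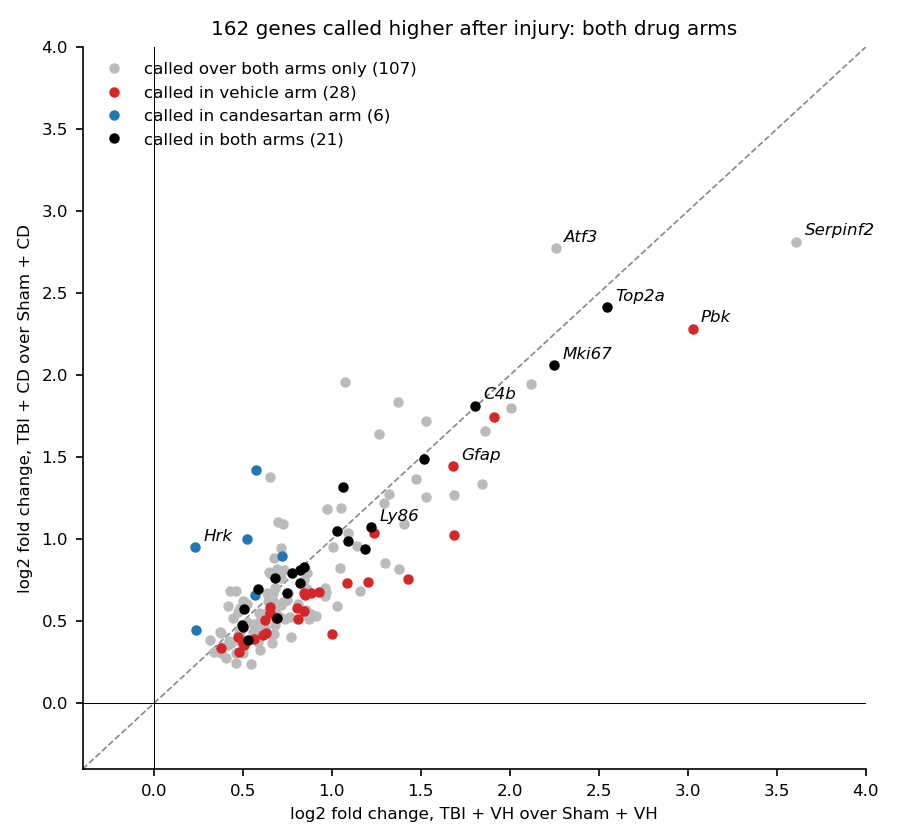
Log2 fold change in the vehicle arm (horizontal axis, TBI + VH over Sham + VH) and in the candesartan arm (vertical axis, TBI + CD over Sham + CD) of the 162 genes called higher over both arms, coloured by the arm in which they were DEGs. The genes lie along the dashed line of equal change, with 21 DEGs in both arms. Of the 162 genes, chosen on both arms together, 115 lie below the line (a larger value with vehicle) and 47 above it, Hrk among them. The 162 include 18 genes that reached the filter through the injured libraries alone.

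The same model was fitted to the hippocampus, directly under the impact, and to the hypothalamus at 3 dpi. Of the 162 genes that rose in the thalamus, 161 were DEGs in the same direction in the hippocampus, where 13.1% of all genes were higher and 2.27% lower. Their median log2 fold change there was 1.96, against 0.70 in the thalamus. The 162 genes include, here and in the comparisons below, the 18 that reached the filter through the injured thalamus libraries alone. Over the other 144 the thalamus median was 0.66. The test of the difference between the regions called 136 of the 162 as larger in the hippocampus (9.39% of all genes) and 1 as smaller (0.578%), though the thalamus libraries that chose the genes are part of that test. Tyrobp was at 2.09 in the hippocampus, C4b at 2.89, Gfap at 3.63 and Lyz2 at 3.92. Mki67 (3.40 against 2.16, FDR of the difference 0.0572 by edgeR) and Top2a (3.40 against 2.48, FDR 0.225) were not past the threshold of that test.

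A few genes did not have the larger value in the hippocampus, and these were named after their values were seen. Hrk was at 0.59 in the thalamus and at -0.20 in the hippocampus, the 1 gene of the 162 called smaller there (FDR = 0.000115 by edgeR). Atf3 was at 2.51 and 2.37 (FDR of the difference 0.909), Sgk1, a kinase induced by glucocorticoids, at 0.76 and 0.58, and Parvg, an adhesion protein of blood cells and microglia, at 0.72 and 0.46. The FDR of Hrk in the thalamus was between 0.00148 and 0.119 over all alternatives.

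In the hypothalamus 5 genes rose (0.0295%), and all 5, Mki67, Cd68, C4b, A2m and Ly86, were among the 162. Of the 150 genes of the 162 tested there, 141 had a log2 fold change above 0, and the median was 0.24. The difference between thalamus and hypothalamus was past the threshold for 9 genes (0.0519%), all larger in the thalamus: Olfml3, Ly86, Cx3cr1, Itgam, Csf1r, Inpp5d, Lat2, Gal3st4 and Tyrobp. For Olfml3 the difference was 0.73 on the log2 scale and for Cx3cr1 0.40, where the hypothalamus was at 0.02. Leaving out 1 library gave between 4 and 15 genes in this test and between 1 and 7 in the hypothalamus.

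At 29 dpi no gene of the thalamus was a DEG in edgeR, with 1109 genes at an unadjusted p under 0.05, and DESeq2 called 17. Of the 151 genes of the 162 tested at that time, 92 were higher at an unadjusted p under 0.05, where 3.39% of all genes were, and the median log2 fold change was 0.36. Tyrobp was at 0.82, Trem2 at 0.87, and C1qa at 0.76, none past the FDR. The difference between the times was past the threshold for 3 genes (0.0175%), Mki67, Top2a and Pbk, all cell cycle genes and all larger at 3 dpi. Top2a differed by 2.01 on the log2 scale. Pbk was under the filter at 29 dpi by itself and entered this test through the injured libraries of 3 dpi, so its difference is not given. Mki67 was at 2.16 at 3 dpi and at -0.04 at 29 dpi. The later cohort had its drug from an osmotic pump, and different mice, so that time and route cannot be told apart.

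**Figure D5:**
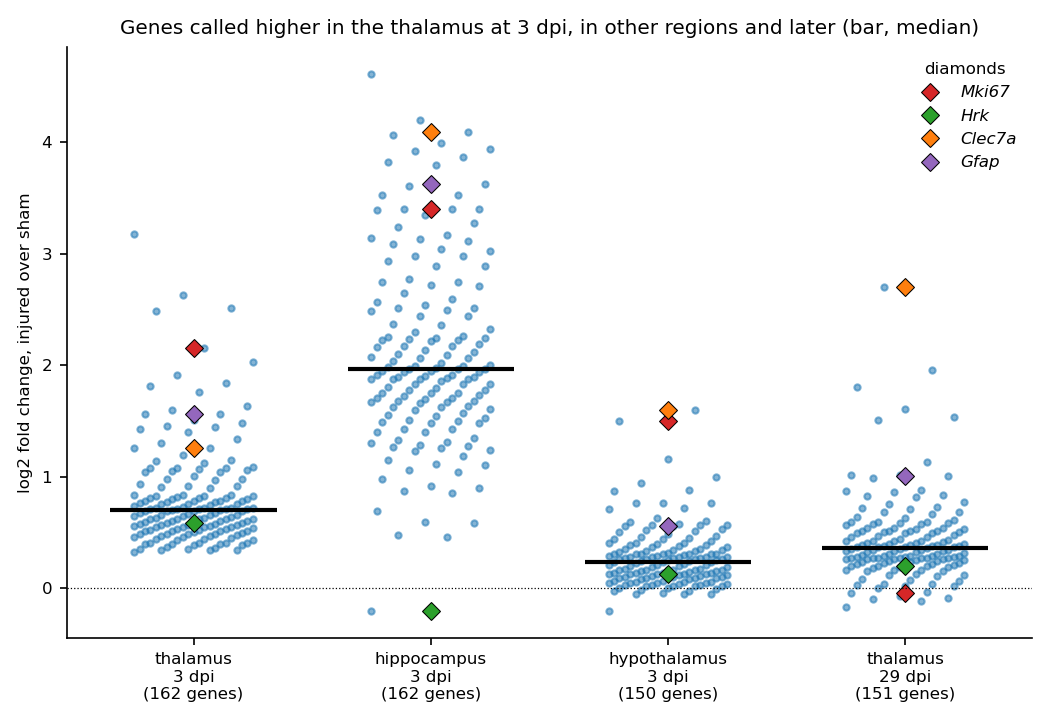
Log2 fold change (vertical axis, injured over sham) of the 162 genes called higher in the thalamus at 3 dpi, shown there and in the hippocampus and hypothalamus at 3 dpi and the thalamus at 29 dpi, with the median as a bar and 4 genes as diamonds. Medians are 0.70, 1.96, 0.24 and 0.36, Mki67 is near 0 at 29 dpi, and Hrk is below 0 in the hippocampus. The 162 genes include 18 that had to be higher in the injured thalamus at 3 dpi to be tested.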

How the data were processed

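Reads were paired-end, from stranded poly(A) libraries of perfused tissue. The authors aligned them to mm10 with MapSplice 2.2.1 and counted them per gene with HTSeq 0.9.1, and the deposited tables hold whole-number counts, without normalization. How reads of paralogs or overlapping genes were counted is not given in the sources used here. All 96 columns matched a label and 0 did not.

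Genes passing filterByExpr were scaled by TMM and tested 2-sided by the quasi-likelihood F test of edgeR 4.0.16 in R 4.3.3, with Benjamini-Hochberg adjustment over all genes tested. DESeq2 1.42.0 was an alternative. CPM use TMM library sizes, and SE is the log2 fold change over the square root of F. p-values measure the spread between mice of a group, 1 library each. On counts simulated from the 16 thalamus libraries the test found 68.7%, 86.6% and 97.0% of genes changed by 0.5, 1 and 2 on the log2 scale, with 3 false calls among 16666 genes. Whether these shares and false calls hold for the measured libraries, which differ in choroid plexus and habenular genes, was not tested. The labels do not pair mice across regions, so tests between regions treated libraries as independent. Positions come from RefSeq tables. Older symbols were matched for 5 list genes.

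Named genes were the 12 smallest FDRs in each direction, the 8 largest changes without overlap at 1 CPM or more, from each of 35 lists the 4 DEGs of smallest FDR and the 2 of highest CPM, the renin-angiotensin list, the 3 smallest p-values of the interaction and of each difference, and all DEGs where there were at most 5. Members, lists and motifs were chosen with earlier results of these data known. Other genes named, among them Hrk, Serpinf2, Vim, Lyz2, Pou4f1 and list members beyond that number, were chosen after their values were seen. Some members of the lists are counted but not reported here by name.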

Additional observations from a re-analysis of the deposited data

Results flagged for a closer look

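In 96 groups of 4 libraries (24 genes in 4 groups), 7 had a library far from the other 3 by Dixon's criterion, where chance gives about 1 in 20. Ttr, at 611 CPM, and Kl, another choroid plexus gene, at 22.5 CPM, were high in Sham + CD 3. Tac2 was low in TBI + CD 4, at 8.89 CPM, and Gpr151 low in Sham + CD 4, at 13.2 CPM; both are habenular genes. Olfml3 was high in Sham + VH 1, at 16.5 CPM, C4b high in Sham + VH 2, at 21.5 CPM, and Serpinf2 high in Sham + CD 1, at 0.303 CPM, all still below the lowest injured library except for Serpinf2.

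The effect of injury differed between the thalamus and the hippocampus in 1741 genes, between the thalamus and the hypothalamus in 9, and between 3 and 29 dpi in the thalamus in 3, each by the test of the difference in edgeR.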

How the results depend on the processing

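All 162 genes kept their direction and an unadjusted p under 0.05 in the 26 refits of the main comparison, and 79 to 162 of them stayed DEGs. The refits reuse the libraries that chose these genes, so the kept direction and unadjusted p were nearly fixed in advance. The main count of 163 became 124 to 174 when 1 library was left out, 39 at an absolute log2 fold change above 1, and, chosen after seeing the data, 89 without the 3 sham libraries high in Ttr and 219 without the 3 injured libraries low in Pou4f1. DESeq2 gave 213 genes, 91 in the vehicle arm, 77 in the candesartan arm, 19 in the hypothalamus, 17 in the thalamus at 29 dpi, 18 between thalamus and hypothalamus and 5 between the times. The 8 vehicle libraries alone gave 3. No filter on low counts gave 3 genes in the hypothalamus and 4 between thalamus and hypothalamus. The cause of these shifts was not tested.

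Replicate numbers are shared between groups, but the labels do not say that a number pairs mice. Deviations of same-numbered libraries correlated with r from -0.17 to 0.47 (median 0.13, 24 pairs) and those of other pairs with a median of -0.03, and not every same-numbered pair was above 0.1, so the samples were not taken as paired. With the number as a replicate block, 178 genes were DEGs, 155 of the 162 among them, and 3 in the hypothalamus.

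Leaving out 1 library gave 24 to 79 genes in the vehicle arm, with 24 without Sham + VH 2, TBI + VH 1 or TBI + VH 2, 26 without Sham + VH 4, 31 without Sham + VH 3 and 79 without TBI + VH 4. It gave 10 to 36 in the candesartan arm, with 10 without Sham + CD 1, 11 without Sham + CD 2, 16 without Sham + CD 4 or TBI + CD 3, 17 without TBI + CD 1 and 18 without TBI + CD 2. The range was 1 to 7 in the hypothalamus, where 11 of the 16 libraries moved the count by more than 1.5 times, 0 to 4 in the thalamus at 29 dpi, 4 to 15 between thalamus and hypothalamus, where 24 of 32 did, and 3 to 7 between the times, with 7 without TBI + CD 4 of 29 dpi and 5 without TBI + VH 4 of 3 dpi. At 29 dpi 4 genes were DEGs without TBI + CD 4, 3 without TBI + CD 1 and 1 without Sham + VH 2 or TBI + CD 2. Of 54 named DEGs, 33 were DEGs in every refit. Serpina3n, Atf3, Serpinf2, Aspg, Csf3r, Bst2, Cdk1, Sgk1 and Mcm5 lost the call without the 3 sham libraries high in Ttr, as did, and without single libraries too, Nusap1, Uhrf1, AK131644, Clec7a, Ccl12, Mx1, S100a4, Tgfb1, Psmb8, A2m and Hrk. Without the 3 injured libraries low in Pou4f1, Ccl12, Hrk, Psmb8, Nusap1, Uhrf1 and AK131644 lost it. Genes under about 0.5 CPM rest on few counts, which limits their fold changes.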
